A study of Rattus norvegicus with 52 samples.

Results

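Potassium channel genes were followed in rat dorsal root ganglia, the clusters of sensory nerve cell bodies beside the spinal cord, after 2 lesions named SN and DR in the labels. The genes were chosen by name alone: every gene whose annotated symbol starts with Kcn was taken, 61 of the 6028 named genes on the array. The probe with the highest mean signal stood for a gene that had several probes, which applied to Kcnip2 and Kcnj3. The labels give only the letters; knowledge of the study has SN as injury to the sciatic nerve, where the peripheral axons run, and DR as injury to the dorsal root, which carries the central axons.

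Each lesion was sampled at 6, 12, 24, 48 and 72 h and at 7 and 14 d, and each had its own control, CON(SN) and CON(DR). RNA came from the L4 to L6 ganglia, and each of the 16 groups was 1 pool of 3 animals. Pools were hybridised on two-colour arrays in 3 channels each; DR6h and DR48h had 4 and DR12h had 5, which makes 52 channels. The labels used here give no strain, age or sex. Replicate channels therefore repeat the hybridisation of a pool, p-values reflect nothing but the scatter of repeated hybridisations, and lesion and pool cannot be told apart. All 7 times of a lesion were compared with the same 3 control channels. In bulk ganglion RNA, fewer cells of a type and less RNA per cell cannot be told apart.

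Potassium channels let potassium leave the cell, which brings the membrane back to rest after an action potential and sets how readily a sensory neuron fires. Voltage-gated Kv channels are built of pore-forming subunits (Kcna to Kcnd, Kcnh and Kcnq), of silent subunits that only modify others (Kcng, Kcns and Kcnv), and of auxiliary proteins that change gating or transport to the membrane (Kcnab, Kcne and Kcnip). Inward rectifiers (Kcnj) and two-pore channels (Kcnk) carry resting current, and Kcnma, Kcnmb, Kcnn and Kcnt encode channels, or their partners, that respond to calcium or sodium inside the cell. In sensory neurons these currents are known to restrain repetitive firing, and loss of some of them after nerve injury is a known feature of hyperexcitability.

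Promoter windows from RefSeq (build GRCr8, 250 bases before to 50 after the annotated start) were matched by symbol to 40 of the 61 genes, in 45 windows because some genes have several starts. The windows of 3 genes described below are shown because their probes moved in different ways: Kcnab1 lay below its control after SN and rose after DR, Kcne3 rose after SN, and Kcns1 lay below its control at the later SN times and at 7 d after DR. Capitals mark TGACG, the core of the cyclic AMP response element. Both strands were searched, and the core lies inside the full element TGACGTCA.
Kcnab1, chr2:151614301-151614600 (+): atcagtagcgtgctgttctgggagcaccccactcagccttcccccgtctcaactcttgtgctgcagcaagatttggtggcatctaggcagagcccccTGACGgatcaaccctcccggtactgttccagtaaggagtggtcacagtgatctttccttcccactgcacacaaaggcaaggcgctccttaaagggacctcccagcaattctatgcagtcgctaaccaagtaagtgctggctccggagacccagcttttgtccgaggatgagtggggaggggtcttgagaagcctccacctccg
Kcne3, chr1:163935785-163936084 (+): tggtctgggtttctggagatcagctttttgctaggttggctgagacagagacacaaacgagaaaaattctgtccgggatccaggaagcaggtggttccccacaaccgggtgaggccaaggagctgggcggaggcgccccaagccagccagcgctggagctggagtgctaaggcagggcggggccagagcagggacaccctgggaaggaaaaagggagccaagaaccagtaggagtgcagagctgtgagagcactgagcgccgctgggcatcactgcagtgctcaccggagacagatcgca
Kcns1, chr3:173262297-173262596 (-): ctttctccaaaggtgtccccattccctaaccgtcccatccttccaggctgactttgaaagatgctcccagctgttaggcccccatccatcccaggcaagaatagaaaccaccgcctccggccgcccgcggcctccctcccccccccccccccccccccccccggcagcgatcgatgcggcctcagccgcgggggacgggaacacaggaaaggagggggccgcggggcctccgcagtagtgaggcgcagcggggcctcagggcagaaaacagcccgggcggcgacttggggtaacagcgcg
The core was present once in the Kcnab1 window and in neither of the other two windows. It was found in 9 of the 45 windows of potassium channel genes (20.0%) and in 21.2% of all 33469 RefSeq windows. The full element was in 0 of the 45 windows and in 1.83% of all. The AP-1 motif TGANTCA, where N is any base, was in 3 of the 45 windows, those of Kcne1, Kcnj1 and Kcnj16 (6.67%, against 7.33% of all). The windows of potassium channel genes held more G and C, with a median of 61.7% against 51.7% over all windows.

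Before the results, some facts of the whole series matter. The deposited intensities were already normalised, with channel medians between 120 and 125. Atf3, a transcription factor induced in injured neurons, rose by a log2 difference of 4.19 ± 0.22 (SE) at 24 h after SN and 2.83 ± 0.22 at 24 h after DR. Most neuronal markers were abundant: over 9 genes their summed intensity ran from 151255 to 226637 across all channels. Nefm, Nefl and Prph dominate that sum (medians 60461.5, 47961.5 and 37010), while Calca and Thy1 were far dimmer (medians 74 and 199.5). Along principal component 1, which held 22.4% of the variance, 4 channels, DR48h replicate 4, DR72h replicate 3 and DR14d replicates 2 and 3, which fell on 2 arrays, stood apart at 37.8 to 41.7, where all other channels were at or below 22.1. At the low end SN6h replicate 3 lay at -34.8 and DR7d replicate 1 at -35.1, with the next channel at -20.4. Results that rest on the 4 high channels are given with and without them. The low channels were left out only singly. Of the 61 potassium channel probes, 37 had a mean signal below the median of all probes and 16 lay in the lowest 25%, so many were near the dim end of the array.

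Few potassium channel genes passed the test, and their share was close to that of the array. Values are log2 differences, each time against CON(SN) or CON(DR) of its lesion, ± SE from a limma model with dye as a term. A gene was called over a course when an F test over the 7 times had an adjusted p below 0.05 (Benjamini-Hochberg over 8455 probes) and the change reached 1.5-fold at any time. After SN, 2 of 61 genes were called (3.28%, against 4.93% of all probes): Kcne3 rose (2.99% of all probes rose) and Kcnt1 fell (1.94%). After DR, 5 of 61 were called (8.2%, against 7.81% of all probes): Kcnab1, Kcnd1, Kcnh2 and Kcnip4 rose (5.05% of all probes rose) and Kcna1 fell (2.76%). The difference between the courses, tested as an interaction, was called for 1 gene, Kcnab1 (1.64%, against 4.18% of all probes).

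The same counts were taken within arrays, from the difference between the channels that shared an array, where the pairing of channels was inferred from the authors' deposited table. There Kcne3 was called after SN, higher (1 gene, against 3.76% of all probes called and 2.55% called higher). After DR, Kcnab1, Kcnd1 and Kcnip4 rose and Kcns1 fell (4 genes, against 5.63% of all probes, 2.8% higher and 2.83% lower). Kcnab1 was again the 1 gene called for the difference between lesions (3.82% of all probes). Called in both fits and in the same direction were thus Kcne3 after SN and Kcnab1, Kcnd1 and Kcnip4 after DR. Of all 8455 probes, 207 were called in this way after SN and 239 after DR. Both fits use the same channels, so a call in both is not independent support.

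**Figure D1:**
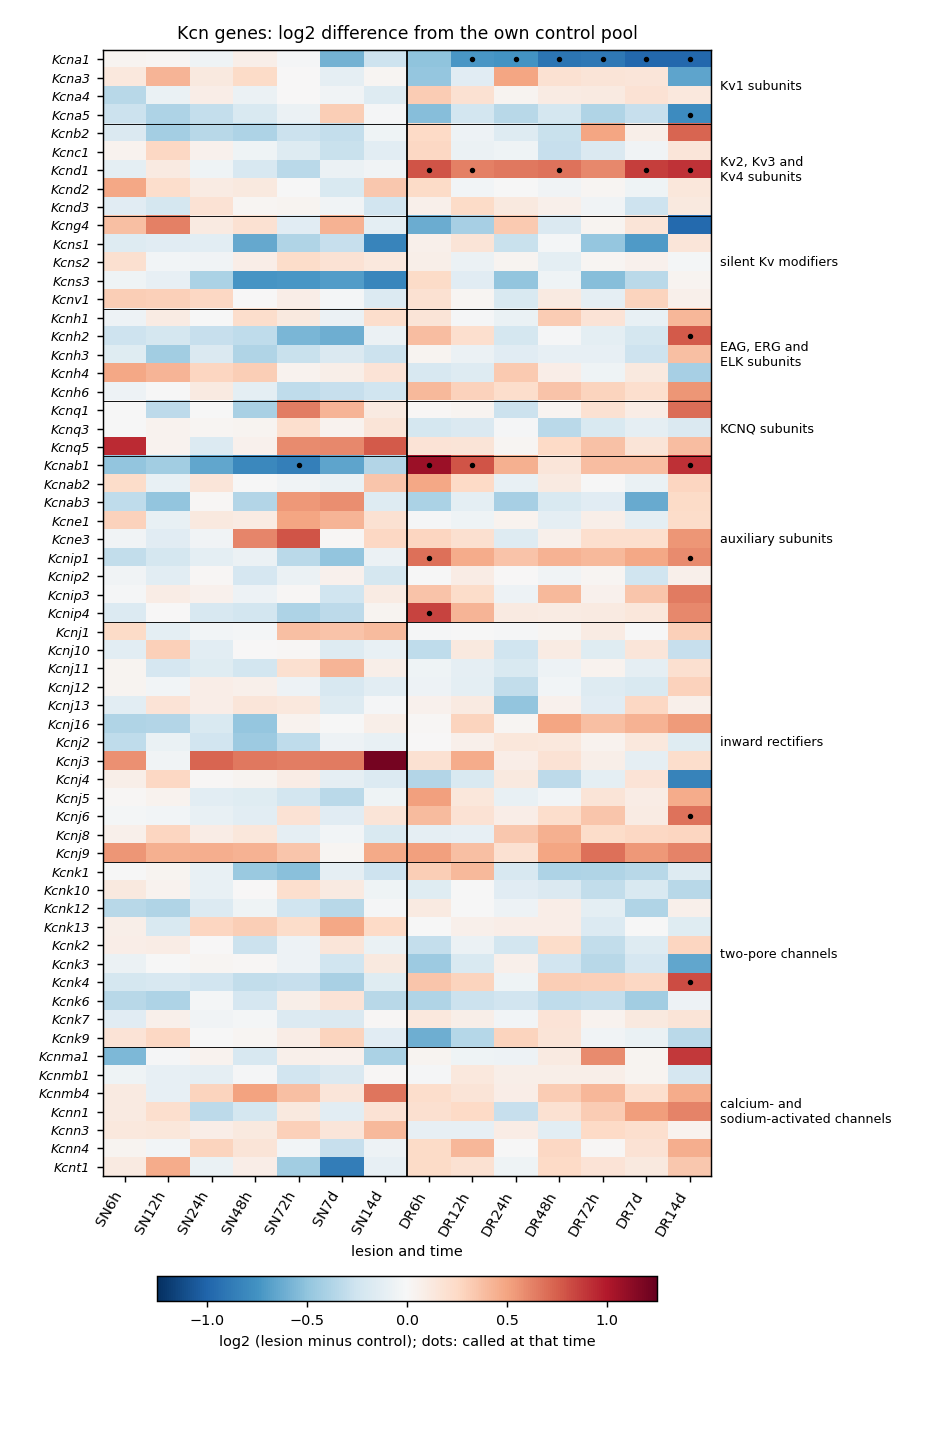
Log2 differences of the 61 potassium channel genes (rows, grouped by family) from the own control pool at the 7 SN and 7 DR times (columns); red is higher and blue lower than control, and dots mark the 1 SN and 21 DR values called at a single time. The row of Kcna1 is blue at all DR times, the row of Kcnab1 is blue after SN and red after DR, and the DR14d column holds 8 of the dots.

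Among the 4 Kv1 subunits (Kcna1, Kcna3, Kcna4 and Kcna5), which form channels of axons and terminals, most of them low-threshold delayed rectifiers and Kcna4 a fast inactivating one, Kcna1 fell after DR. Its CON(DR) channels read 5314, 3860 and 4195. At 6 h after DR they read 3392, 2598, 3468 and 3627. At 12 h they read 3984, 2239, 3235, 2062 and 3195. Of these early values, all at 6 h lay below every control channel, while 1 channel at 12 h reached into the control range. The channels read 3540, 2952 and 2224 at 24 h, 1767, 2703, 3239 and 2305 at 48 h, and 3162, 1974 and 2754 at 72 h. They read 2266, 2032 and 2450 at 7 d and 2919, 2035 and 1880 at 14 d. All channels from 24 h to 14 d were below the control range.

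The log2 difference of Kcna1 was -0.50 at 6 h, -0.72 at 12 h, -0.75 at 24 h, -0.91 at 48 h, -0.89 at 72 h, -0.98 at 7 d and -0.98 ± 0.17 at 14 d, a 1.98-fold lower level at the end (course adjusted p = 0.00064). It was called at every single time but 6 h (adjusted p = 0.0567 there). Within arrays the value at 14 d was -0.66 ± 0.22 and the course was not called (adjusted p = 0.0577), while the mean over the 7 times was -0.55 (adjusted p = 0.0497). The authors' deposited table gives -0.54 at 14 d and -0.81 at 7 d. Without the 2 arrays that stand apart the value at 14 d was -0.84 ± 0.25, no longer called at that time, and the course stayed called.

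After SN, Kcna1 channels read 4365, 5377 and 3284 in the control and 2527, 3099 and 2867 at 7 d. The 7 d channels were below the control range, and those of the other SN times overlapped it. The log2 difference at 7 d was -0.59 ± 0.17, short of the threshold (adjusted p = 0.0945 at that time and 0.0754 over the course). The difference between the courses was not called for Kcna1 (largest at 48 h, 0.99 ± 0.24 for SN minus DR, adjusted p = 0.0974), so a different response to the 2 lesions was not shown. Of the other Kv1 genes, Kcna5 was called at DR14d alone (-0.79, adjusted p = 0.0272; -0.59 without the 2 arrays, not called). Kcna3 and Kcna4 were called nowhere.

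Kcnab1 encodes a cytoplasmic beta subunit that binds Kv1 channels and speeds their inactivation, and its probe moved in opposite directions after the 2 lesions. Its CON(SN) channels read 193, 232 and 173. After SN they read 165, 142 and 118 at 6 h, 162, 122 and 161 at 12 h, 117, 138 and 126 at 24 h, and 112, 112 and 118 at 48 h. They read 90, 145 and 103 at 72 h, 134, 153 and 96 at 7 d, and 142, 167 and 153 at 14 d. Every SN channel was below every control channel, at all 7 times against the same controls.

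After DR the order was the other way round. CON(DR) channels of Kcnab1 read 195, 138 and 146. They read 423, 383, 263 and 277 at 6 h, 240, 287, 256, 379 and 216 at 12 h, and 238, 194 and 210 at 24 h. They read 155, 185, 127 and 253 at 48 h, 206, 168 and 248 at 72 h, 168, 231 and 227 at 7 d, and 252, 340 and 309 at 14 d. All channels at 6 h, 12 h and 14 d were above the control range, and at the times between them the channels overlapped it.

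The log2 difference of Kcnab1 after DR was 1.07 ± 0.21 at 6 h (2.1-fold, adjusted p = 0.00185), 0.79 at 12 h and 0.92 at 14 d, with 0.15 at 48 h between them (course adjusted p = 0.00216). Within arrays it was 0.81 ± 0.16 at 6 h and 0.96 at 12 h (course adjusted p = 0.00278) but 0.28 at 14 d, and the call at 14 d was lost without the 2 arrays that stand apart (0.71 ± 0.30). The authors' deposited table has 0.19 at 6 h and 0.17 at 12 h, a smaller rise than either fit.

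After SN, Kcnab1 fell by 0.85 on the log2 scale at 72 h (SE 0.23, adjusted p = 0.0323), the 1 potassium channel value called at a single SN time (1.64% of 61, against 1.86% of all probes at SN72h). At the other 6 SN times 0 of the 61 genes were called, against 0.237% of all probes at 6 h, 0.177% at 12 h, 0.497% at 24 h, 1.8% at 48 h, 1.05% at 7 d and 1.81% at 14 d. The difference was -0.81 at 48 h (adjusted p = 0.0502) and -0.36 at 14 d, and the course as a whole was not called (adjusted p = 0.124). Within arrays 48 h was the called time (-0.95, adjusted p = 0.00668), and the authors' deposited table has -0.88 at 48 h and -0.71 at 72 h. The SN change minus the DR change of Kcnab1 was -1.56 ± 0.31 at 6 h (adjusted p = 0.0377 over the 7 times), and -1.15 ± 0.24 within arrays (adjusted p = 0.0287).

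**Figure D2:**
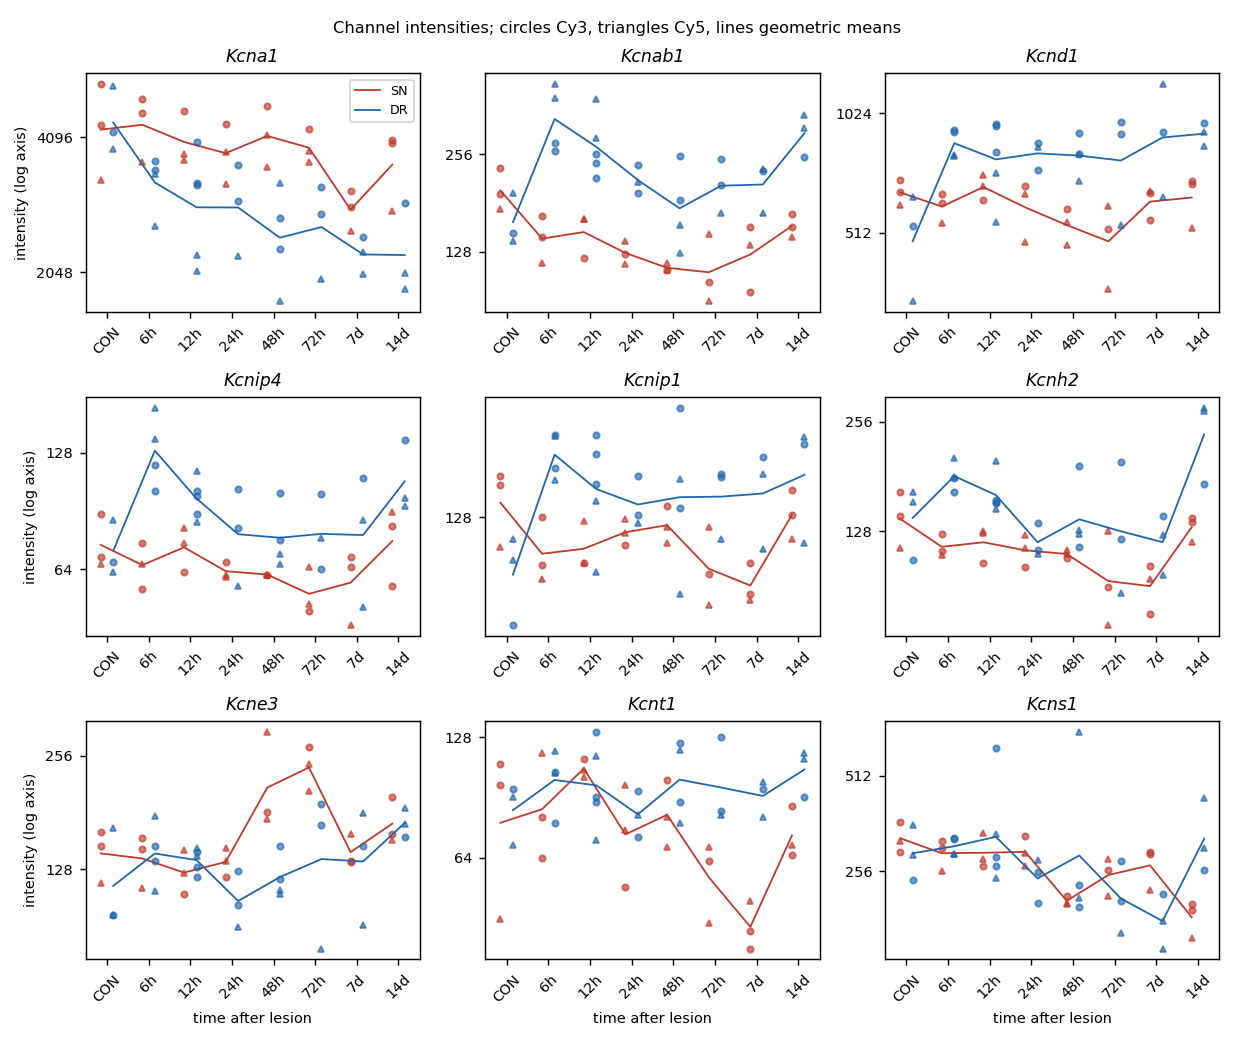
Intensity of every hybridisation channel (vertical log axis) in the control and at the 7 times for 9 potassium channel genes; red is SN, blue is DR, circles are Cy3 and triangles Cy5, and lines join geometric means. Kcnab1 channels lie lower after SN than after DR at all 7 times, Kcna1 declines after DR from 3860 to 5314 in the control to 1880 to 2919 at 14 d, and Kcne3 stands above its control at 48 and 72 h after SN.

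Of the 5 Kv2, Kv3 and Kv4 subunits (Kcnb2, Kcnc1, Kcnd1, Kcnd2 and Kcnd3), Kcnd1, which forms a fast inactivating A-type channel, rose after DR. Its CON(DR) channels read 345, 631 and 532, a wide range. They read 804, 798, 930 and 919 at 6 h, 960, 725, 952, 544 and 818 at 12 h, 862, 736 and 841 at 24 h, and 693, 913, 806 and 806 at 48 h. They read 973, 535 and 905 at 72 h, 631, 1212 and 920 at 7 d, and 966, 917 and 848 at 14 d. Channels at 6, 24 and 48 h and at 14 d were all above the control range, and 1 channel at each of the other times fell into it or touched its top.

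Kcnd1 differed from the control by 0.60 to 0.90 log2 at all 7 DR times and by 0.90 ± 0.20 at 14 d (course adjusted p = 0.0314), and 5 of the 7 single times were called. Without the 2 arrays that stand apart the value at 14 d was 0.84 ± 0.30 and the course was not called (adjusted p = 0.0783). Within arrays the value at 14 d was 0.75 ± 0.21 (course adjusted p = 0.0414). In the authors' deposited table it is 0.24 at 14 d and between 0.03 and 0.21 at the other times. The course call was lost when single control channels were left out. Without CON(DR) replicate 1, which read 345, the value at 14 d was 0.68 (adjusted p = 0.28). Without CON(DR) replicate 3 it was 0.89 (adjusted p = 0.117). The call was also lost without DR14d replicate 2 (adjusted p = 0.0615) or replicate 3 (adjusted p = 0.0532), both on the arrays that stand apart. After SN, Kcnd1 lay between -0.34 and 0.12 and was not called. The other 4 genes of this family were called at no time after either lesion.

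Kcnip proteins are calcium-binding partners of Kcnd subunits that bring them to the membrane and tune their inactivation. Kcnip4 rose after DR. Its CON(DR) channels read 86, 63 and 67, and those at 6 h read 167, 139, 102 and 119, all above the control range. At 12 h they read 99, 85, 102, 115 and 89, 1 of them inside the control range. From 24 h to 7 d the channels lay between 51 and 110 and overlapped the control, and at 14 d they read 138, 98 and 93. The 14 d channels were again above the control range. The log2 difference was 0.85 ± 0.21 at 6 h (course adjusted p = 0.0295), 0.43 at 12 h and 0.60 at 14 d, and 6 h alone was called as a single time.

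Within arrays Kcnip4 stood at 0.75 ± 0.15 at 6 h and 0.71 at 12 h (course adjusted p = 0.0435), and the authors' deposited table gives 0.39 at 6 h. The course call was lost without DR6h replicate 1 (0.70, adjusted p = 0.112), DR6h replicate 2 (0.79, adjusted p = 0.0833) or CON(DR) replicate 2 (0.77, adjusted p = 0.0504). After SN, Kcnip4 was between -0.39 and 0.03 and not called.

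Kcnip1 was called at DR6h, though not over the course. Its CON(DR) channels read 117, 107 and 82, and those at 6 h read 149, 179, 157 and 180, all above the control. The difference was 0.69 ± 0.18 at 6 h (adjusted p = 0.019; course adjusted p = 0.176) and 0.68 ± 0.17 within arrays, and 0.28 in the authors' deposited table. It was also called at 14 d (0.60, adjusted p = 0.0332), where the call was lost without the 2 arrays that stand apart. Kcnip2 and Kcnip3 were called nowhere, nor was the second, dimmer probe of Kcnip2.

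Kcnab1, Kcnd1, Kcnip1 and Kcnip4 were thus the 4 genes called at DR6h (6.56% of 61, against 4.09% of all probes), all of them higher, as were 2.87% of all probes. At the later DR times 3 genes were called at 12 h (2.9% of all probes), 1 at 24 h (1.04%), 2 at 48 h (3.49%), 1 at 72 h (1.79%), 2 at 7 d (2.24%) and 8 at 14 d (12.2%). Kcna1 and Kcnd1 supplied all calls from 24 h to 7 d.

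**Figure D3:**
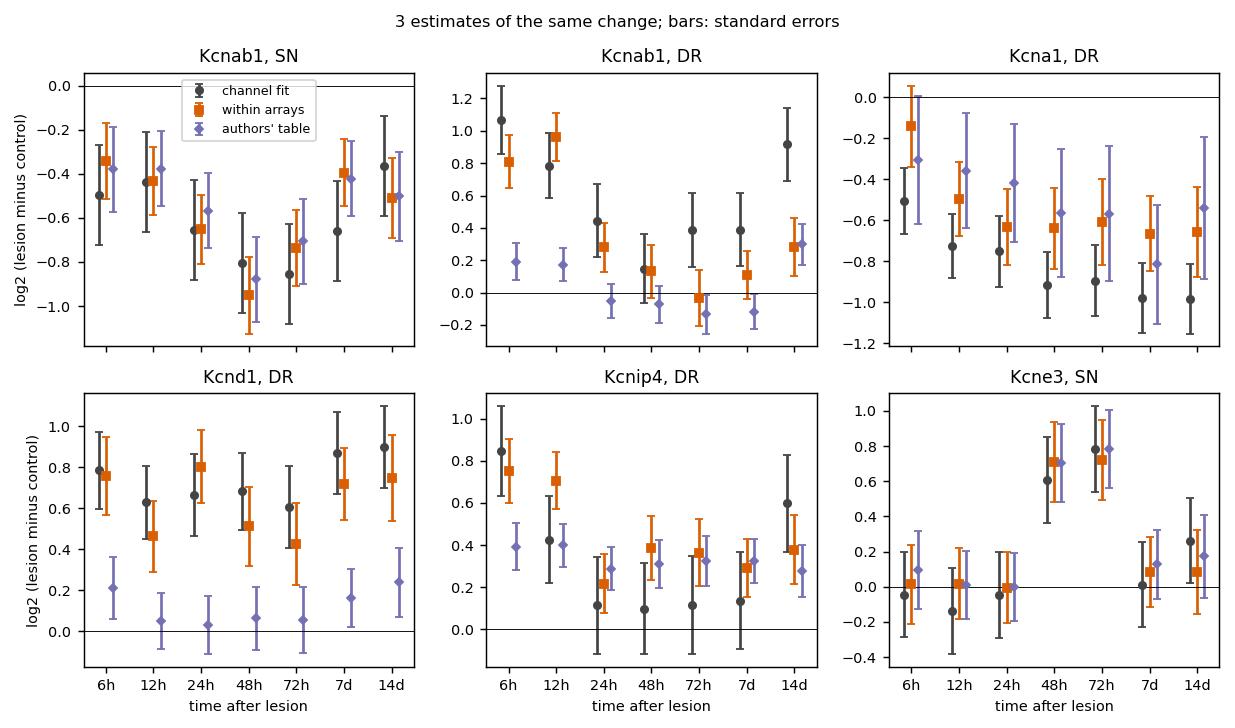
Log2 difference from control by time (horizontal axis) for 6 gene and lesion pairs, from the channel fit (circles), within arrays (squares) and the authors' deposited table (diamonds); bars are standard errors. The 3 estimates lie together for Kcnab1 and Kcne3 after SN, whereas the deposited values of Kcnab1 at 6 h and of Kcnd1 after DR (0.19 and 0.03 to 0.24) are smaller than those from the channels.

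Kcne3, a small single-pass auxiliary subunit best known for holding Kcnq1 channels open in epithelia, rose after SN. Its CON(SN) channels read 148, 161 and 118. The channels read 296, 182 and 174 at 48 h and 206, 243 and 270 at 72 h, all above the control range. At 6, 12 and 24 h and at 7 and 14 d the channels lay between 110 and 199 and overlapped the control. The rise was thus seen at 2 neighbouring times: 0.61 at 48 h and 0.78 ± 0.24 at 72 h (1.72-fold, course adjusted p = 0.0391), with 0.01 at 7 d.

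Within arrays Kcne3 stood at 0.71 at 48 h and 0.72 ± 0.23 at 72 h (course adjusted p = 0.0397), and the authors' deposited table gives 0.71 and 0.79. Neither time was called on its own (adjusted p = 0.283 and 0.093). The course call was near the threshold: the adjusted p ran up to 0.122 when single SN channels were left out and was lost in 12 of the 52 cases, with the log2 value between 0.72 and 0.87 in those 12. After DR, Kcne3 lay between -0.16 and 0.55 and was not called. Kcne1, Kcnab2 and Kcnab3, the other auxiliary subunits, were not called in either course. Macrophage markers also moved after SN: 4 of 5 (Aif1, Cd74, Csf1r and Ctss) rose after SN, and their summed intensity was 2073 to 2139 in CON(SN), 3219 to 3637 at 6 h, 2181 to 2282 at 12 h, 2294 to 2587 at 24 h, 2944 to 4444 at 48 h, 3459 to 4066 at 72 h, 5066 to 5343 at 7 d and 5510 to 6422 at 14 d. Within arrays 3 of these 5 markers were called higher after SN. Unlike those markers, Kcne3 was near its control level at 7 d, and their part in its rise was not tested.

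Of the 5 silent modifiers (Kcng4, Kcns1, Kcns2, Kcns3 and Kcnv1), which form no channel alone and alter Kcnb channels when assembled with them, Kcns1 and Kcns3 lay lower at the later SN times. Kcns1 channels read 295, 366 and 319 in CON(SN), 204, 214 and 202 at 48 h and 158, 193 and 202 at 14 d. All channels from 48 h to 14 d after SN lay below the control range. In CON(DR) they read 289, 358 and 240, and at 7 d after DR 146, 179 and 217, again below the control range. At 14 d after DR they read 258, 435 and 304 and overlapped it, and 3 of the 7 DR times lay above the control on average.

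The log2 difference of Kcns1 was -0.83 ± 0.30 at 14 d after SN and -0.71 ± 0.30 at 7 d after DR, and neither course was called from the channels (adjusted p = 0.405 and 0.147). Within arrays the DR course was called (-0.69 ± 0.16 at 7 d, adjusted p = 0.0386) and the SN course was not (-0.68 ± 0.20 at 14 d, adjusted p = 0.0556). The authors' deposited table gives -0.61 at SN14d and -0.49 at DR7d. Single high DR channels, 626 at 12 h and 704 at 48 h, widened the spread of this probe.

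Kcns3 differed from CON(SN) by -0.73 at 48 h, -0.73 at 72 h, -0.70 at 7 d and -0.82 ± 0.25 at 14 d, with -0.06 at 6 h. The course missed the threshold (adjusted p = 0.0551, and 0.0711 within arrays, where the value at 14 d was -1.01 ± 0.28). The authors' deposited table gives -1.17 at 48 h and -1.01 at 14 d. After DR it lay between -0.53 and 0.23. Kcng4 spanned -0.97 (14 d; -0.65 without the 2 arrays that stand apart) to 0.33 after DR without a call, and Kcns2 and Kcnv1 were called nowhere.

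In the EAG, ERG and ELK family (Kcnh1, Kcnh2, Kcnh3, Kcnh4 and Kcnh6), Kcnh2, the ERG channel known for repolarising heart muscle, was called after DR. Its channels read 154, 164 and 107 in CON(DR), 181, 204, 164 and 179 at 6 h, and 173, 273 and 279 at 14 d. The 14 d channels were above the control range, and the 2 highest were those of the arrays that stand apart. The difference at 14 d was 0.76 ± 0.22 (course adjusted p = 0.0153). It was 0.14 ± 0.16 within arrays, 0.36 in the authors' deposited table and 0.33 ± 0.26 without the 2 arrays, so the size of this change rests on them. After SN, Kcnh2 lay below its control at all 7 times, at most by -0.61 at 7 d, and was not called. The other 4 genes ranged from -0.44 to 0.56 over the SN and DR times and were called nowhere.

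Of the 3 KCNQ genes (Kcnq1, Kcnq3 and Kcnq5), which carry the M current that damps repetitive firing in neurons, none was called at any time. Kcnq5 reached 0.93 at 6 h after SN with a standard error of 0.35, and 0.21 within arrays. Kcnq1 reached 0.70 at DR14d (adjusted p = 0.0653), 0.24 within arrays and 0.48 without the 2 arrays that stand apart.

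The 13 inward rectifiers (Kcnj1, Kcnj2, Kcnj3, Kcnj4, Kcnj5, Kcnj6, Kcnj8, Kcnj9, Kcnj10, Kcnj11, Kcnj12, Kcnj13 and Kcnj16) gave no course call. They include the G protein-gated channels (Kcnj3, Kcnj5, Kcnj6 and Kcnj9), the ATP-sensitive ones (Kcnj8 and Kcnj11) and Kcnj10, which takes up potassium in satellite glia. Their values ran from -0.48 to 1.20 after SN and from -0.83 to 0.68 after DR. The highest value of any of the 61 genes, 1.20 at SN14d, belonged to Kcnj3, whose CON(SN) channels ranged from 103 to 509. It was not called (adjusted p = 0.16), was 0.47 within arrays, and the second probe of Kcnj3 did not pass either (0.47 at 72 h, course adjusted p = 0.066). Kcnj6 was called at DR14d alone (0.68, adjusted p = 0.016), a call lost without the 2 arrays (0.30).

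The 10 two-pore channels (Kcnk1, Kcnk2, Kcnk3, Kcnk4, Kcnk6, Kcnk7, Kcnk9, Kcnk10, Kcnk12 and Kcnk13), which carry background potassium current and include the mechanically and thermally sensitive Kcnk2, Kcnk4 and Kcnk10, gave no course call. Values ran from -0.52 to 0.48 after SN and from -0.65 to 0.81 after DR. The upper end was Kcnk4 at DR14d (adjusted p = 0.00805), which was 0.23 within arrays and 0.36, not called, without the 2 arrays.

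Of the 7 calcium- and sodium-activated genes (Kcnma1, Kcnmb1, Kcnmb4, Kcnn1, Kcnn3, Kcnn4 and Kcnt1), Kcnt1, a sodium-activated channel of sensory neurons, was called after SN. Its channels read 97, 110 and 45 in CON(SN) and 50, 42 and 38 at 7 d. The 7 d channels did not lie clear of the control, because the third control channel was as low as they were. The difference at 7 d was -0.86 ± 0.26 (course adjusted p = 0.0214), but -0.20 ± 0.13 within arrays (adjusted p = 0.719) and -0.24 in the authors' deposited table. The call was lost without SN7d replicate 2 (adjusted p = 0.086) or replicate 3 (adjusted p = 0.118). The other 6 genes were not called: Kcnmb4, a partner of the large-conductance channel, reached 0.67 at SN14d (adjusted p = 0.184), and Kcnma1, its pore, 0.89 at DR14d (adjusted p = 0.0943; 0.08 without the 2 arrays that stand apart).

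The DR14d pool stood out for the whole array as well as for these genes. At DR14d the median of the 61 genes was 0.22 against 0.04 for all probes, and 31.1% of them passed 1.5-fold in either direction against 21.9% of all probes. At the other 13 times their median lay between -0.08 and 0.08. Their share past 1.5-fold lay between 1.64% and 13.1% there, against 2.71% to 10.4% of all probes. It was above the share of all probes from SN24h to SN14d (most at SN7d, 13.1% against 5.81%). At SN6h, SN12h and DR6h to DR7d it was below (as at DR48h, 3.28% against 9.76%). Without the 2 arrays that stand apart, which leaves DR14d with 1 channel, assumed to vary like the other groups, 0 of 61 genes and 14 probes (0.166%) were called there. The DR course then called Kcna1, Kcnab1 and Kcnip4 (3 genes, against 4.75% of all probes), and the SN course Kcnab3, Kcne3 and Kcnt1 (3 genes, against 5.9%).

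**Figure D4:**
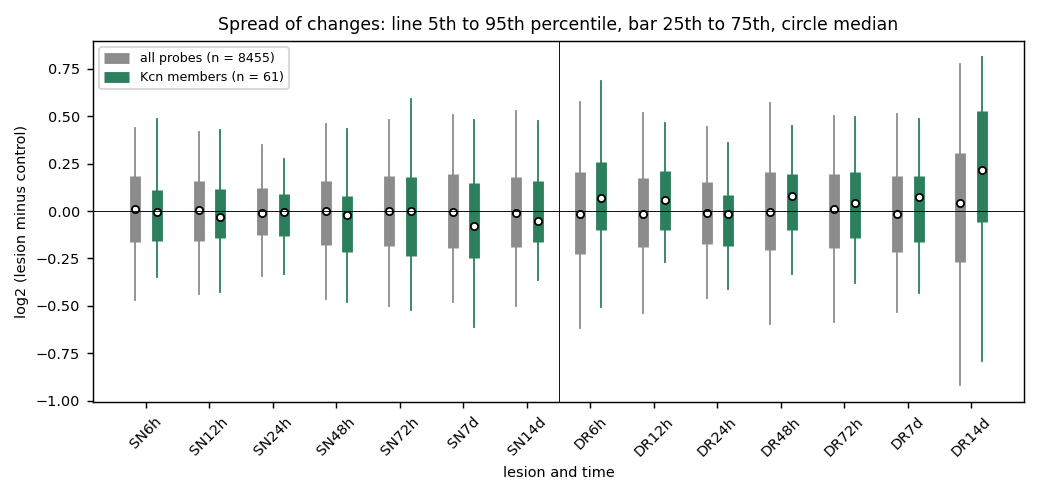
Spread of the log2 difference from control at each lesion and time (horizontal axis) for the 61 potassium channel genes (green) and all 8455 probes (grey); lines run from the 5th to the 95th percentile, bars from the 25th to the 75th, and circles are medians. Both spreads are widest at DR14d, where the median of the genes is 0.22. At DR48h the line of the genes is shorter than that of all probes (-0.331 to 0.449 against -0.595 to 0.57).

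With pools as the unit of replication, no potassium channel gene passed. The 8 later pools (48 h to 14 d of both lesions) were compared with the 6 earlier ones (6 to 24 h) in a limma fit on the 16 pool means: 0 of 61 genes had an adjusted p below 0.05, against 0.0355% of all probes. At an unadjusted p below 0.05 there were 10 genes (12.3% of all probes). Kcnk1, a weakly conducting two-pore channel, stood first: its pool mean was 7.12 on the log2 scale in the later and 7.52 in the earlier pools, a difference of -0.40 ± 0.10 (limma, adjusted p = 0.189). Kcnc1, Kcns1, Kcns3 and Kcna1 also lay lower in the later pools, and Kcne3, Kcnj1, Kcnj16, Kcnmb4 and Kcnq1 higher, each at an adjusted p between 0.299 and 0.394.

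The 14 lesion pools against the 2 control pools gave 0 of 61 genes, and 0 of all probes (0%), at an adjusted p below 0.05. At an unadjusted p below 0.05 there were 4 (7.39% of all probes): Kcnj9, Kcnd1 and Kcnmb4 higher and Kcna1 lower. The difference was 0.44 ± 0.13 for Kcnj9 (adjusted p = 0.385) and -0.45 ± 0.15 for Kcna1 (adjusted p = 0.51).

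Genes that work with potassium channels were counted over the same courses, where 4.93% of all probes were called after SN and 7.81% after DR. Of 9 measured partners (scaffolds, adhesion proteins and regulators such as Dlg1, Cntn2 and Dpp6), 0 passed over the SN course and 1 over the DR course: Dlg4, a synaptic scaffold, fell (-0.84 ± 0.23 at 14 d, adjusted p = 0.0241), though it was -0.03 within arrays and -0.17 ± 0.24 at 14 d without the 2 arrays that stand apart. Within arrays Epb41l3, a membrane scaffold protein, was called lower after SN (-0.66 at 6 h, adjusted p = 0.00109), whereas from the channels it was not (adjusted p = 0.576). Of 4 transcriptional repressors known to act on potassium channel genes in injured ganglia, Dnmt3a, a DNA methyltransferase, fell after SN (-0.83 ± 0.36 at 6 h, adjusted p = 0.031; -0.61 within arrays, not called), and 0 passed after DR. Within arrays Hdac1, a histone deacetylase, was called higher after DR (0.89 at 48 h, adjusted p = 0.0491; 0.56, not called, from the channels). Of 11 pump and transport genes, 1 passed after SN and 0 after DR. It was Slc12a2, the cotransporter that loads sensory neurons with chloride and potassium, which fell by 0.83 on the log2 scale at 72 h (SE 0.21, adjusted p = 0.0267; -0.93 within arrays, also called). Within arrays it was called lower after DR too (-0.84 at 6 h, adjusted p = 0.0388; -0.51, not called, from the channels).

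The 25 sodium, calcium and HCN channel genes, measured beside the potassium channels, had 1 rise and 1 fall after SN and 3 rises and 1 fall after DR, against the same shares of all probes. Within arrays they had 2 rises and 0 falls after SN and 1 rise and 0 falls after DR. Cacna2d1, the calcium channel subunit bound by gabapentin, rose by 1.81 ± 0.17 at 14 d after SN (adjusted p = 2.42e-13; 1.81 within arrays) and by 0.67 ± 0.17 at 72 h after DR (adjusted p = 0.00162; 0.58 within arrays, not called, adjusted p = 0.184). Cacnb3, a calcium channel beta subunit, rose by 1.24 ± 0.22 at 14 d after DR (0.90 within arrays, also called; 0.87 ± 0.29 without the 2 arrays that stand apart). The called falls were Cacna1a after DR and Cacna1e after SN. Cacna1a was -1.36 ± 0.33 at 14 d after DR (adjusted p = 0.0369). It was -0.15 within arrays and -0.66 ± 0.37 without the 2 arrays that stand apart. Cacna1e was -0.65 ± 0.27 at 12 h after SN (adjusted p = 0.0415) and -0.05 within arrays. No potassium channel gene was called with a change as large as that of Cacna2d1 after SN: the largest called was Kcnab1 at DR6h, with 1.07. Over the mean of the 7 times, the median of the 61 potassium channel genes was -0.03 after SN and 0.05 after DR, and that of the 25 other channel genes -0.01 and -0.04, against 0.00056 and 0.0056 over all 6028 named genes.

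Markers of the other cells of the ganglion moved at the times of some of these changes. At DR6h, where Kcnab1, Kcnd1, Kcnip1 and Kcnip4 were high, the 4 satellite glia markers summed to 17012 to 18954 against 11621 to 14231 in CON(DR), a sum that S100b and Glul dominate. Glul was called higher (0.90 ± 0.19 at 6 h), and S100b was called with its peak at 14 d (0.87 ± 0.20; 0.60 ± 0.27 and not called without the 2 arrays that stand apart). Fabp7 went the other way at 6 h (-0.58 ± 0.16, short of 1.5-fold; -0.59 within arrays, called lower), and 2 of the 4 markers lay below the control on average after DR. The 4 myelinating Schwann cell markers summed to 54669 to 62745 against 33792 to 51356, with 0 of 4 called. Pmp22 dominates that sum (median 44106.5), and Mbp and Mag add little (medians 483 and 124.5). At SN72h, where Kcnab1 was low, the sums were 10435 to 19350 against 14821 to 16920 for satellite glia and 37972 to 54873 against 49846 to 52678 for Schwann cells. Neuronal markers summed to 176543 to 204897 at DR6h against 180049 to 210771 in CON(DR), and to 151860 to 177587 at DR14d, where Kcna1 was low. Nefm, Nefl and Prph dominate these sums. Macrophage markers also rose after DR, 4 of 5 being called from the channels. Within arrays 2 were called higher and 1, Aif1, lower (-0.90 at 6 h). Csf1r was 0.63 at 48 h, and 0.56 ± 0.17 without the 2 arrays that stand apart. The macrophage sums were 1793 to 2243 in CON(DR), 2469 to 3378 at 48 h, 3368 to 4453 at 7 d and 2248 to 2464 at 14 d. Kcna1 was low at these DR times. Red blood cell markers moved with both lesions: Hbb fell by 2.18 on the log2 scale at 14 d after SN and by 1.23 at 48 h after DR, called in both fits. The sums of the 2 red blood cell markers were 12032 to 13074 in CON(SN) and 2581 to 3025 at SN14d, and 8245 to 10882 in CON(DR), 3643 to 4969 at DR48h and 9477 to 13659 at DR7d, while Kcna1 was low at both of these DR times. No probe of the array read 0 (the lowest single value was 9), so a marker above 0 does not show that its cell type was present. Muscle markers summed to at most 156 in any channel, near the median of a single probe. The part of these cells in the changes of the potassium channel genes was not tested.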

How the data were processed

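The authors deposited one intensity per probe and channel, linear and already normalised; the method is not given in the sources used here. The deposited table also holds log2 coefficients against time zero with standard errors, for which the submitters' processing notes name limma. As the values were linear and not log2 as planned, values were log2-transformed without pseudocount or filter. All 8455 probes and 52 channels were fitted in limma 3.58.1 (R 4.3.3) with group and dye as terms, with Benjamini-Hochberg adjustment over all probes. A call needed an adjusted p below 0.05 and 1.5-fold, and the pool fits had no fold minimum. The median SE of a time against control was 0.22 log2 from channels and 0.15 within arrays, and the number of arrays limits the precision. Per the labels, each RNA was a pool of 3 animals in an interwoven loop design, and SN and DR formed separate loops.

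For the within-array values, the 52 channels were joined into 26 arrays (12 SN, 14 DR) by matching channel differences to the authors' deposited coefficients. All joins were mutual best matches, and the relative standard errors of this layout equal those deposited. Across the 8455 probes, which share these channels, deposited coefficients correlated with within-array values at 0.85 to 0.98 over the SN times and 0.55 to 0.70 over the DR times. With channel values the correlations were 0.50 to 0.66 and 0.38 to 0.60. The reason for the lower DR correlations was not tested. Because the joins used those coefficients, the 2 are not independent.

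Genes were named by the platform annotation, updated through gene identifiers. The annotation lists 7075 of the probes, 6907 with 1 gene symbol, 168 with several, which were not named, and 1380 are unnamed here. The members are the Kcn genes, 1 probe each; values in every channel are given for those called over a course, and for Kcnip1 and Kcns1, added after their values were seen because they were called at a single time or within arrays. Members and lists were chosen with earlier results of these data known. Replicate numbers did not pair channels: residuals of channels of the same number correlated at 0.015 on average, with single pairs from -0.63 to 0.57. The fits were tested on simulated data. Alternatives tried were no dye term, other scalings, a filter on dim probes, each series alone, the replicate block and leaving out channels.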

Additional observations from a re-analysis of the deposited data

Results flagged for a closer look

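The SN change of Kcnab1 minus its DR change was -1.56 on the log2 scale at 6 h, a difference between the lesions that passed the interaction test over the course (adjusted p = 0.0377). The call was lost in 11 of 52 fits that left out 1 channel, with values from -1.58 to -1.42 there.

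In 27 groups of 4 or 5 channels (9 genes, 3 groups), 4 held a channel far from the others by Dixon's criterion on the linear intensities. The fits used log2 values, on which high channels stand out less, and the 27 groups share channels. The criterion's nominal rate of about 1 in 20 groups therefore cannot be set against this count. They were Kcnh2 in DR12h replicate 4 at 200 and in DR48h replicate 4 at 193, and Kcns1 in DR12h replicate 5 at 626 and in DR48h replicate 3 at 704. DR48h replicate 4 is on an array that stands apart.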

How the results depend on the processing

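No gene called over a course or for the interaction reversed its direction in any alternative. Genes that were not called could change sign. Without the 2 arrays that stand apart, Kcnj16 at DR14d went from 0.53 to -0.17. The DR course, with 5 genes called, gave 1 with each series fitted alone (fewer channels share the spread), 3 without the 2 arrays that stand apart and 3 past 1.5-fold in the authors' deposited table, which gives no call. The 21 DR calls at single times became 6 with each series alone, 10 within arrays, 13 without the 2 arrays and 10 within arrays without them. The SN course, with 2 genes, gave 1 with no dye term, 1 with a replicate block, 4 with each series alone, 1 within arrays and 5 past 1.5-fold in the authors' deposited table. The 1 SN call at a single time became 2 with quantile normalisation, with the dimmest 25% of probes left out, with a replicate block, with the mean of a gene's probes and without the 2 arrays, and 10 with each series alone. The pool fits gave 10 and 4 genes at an unadjusted p. The replicate block, which follows numbers that share nothing else, gave 5 genes over the DR course, 21 single DR calls and 1 gene for the interaction. Within arrays 5.63% of all probes were called over the DR course and 3.76% over the SN course, against 7.81% and 4.93% from the channels. For most other settings the share of all probes was not counted. These counts therefore cannot tell a shift of the potassium channel genes from a shift of the whole array. The cause of these shifts was not tested.

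Leaving out 1 channel gave 3 to 8 genes over the DR course (3 without CON(DR) replicate 3 or DR14d replicate 2, 8 without DR72h replicate 2 or 3), 0 to 4 over the SN course (0 without SN7d replicate 2 or 3), 13 to 25 single DR calls (13 without CON(DR) replicate 3), 0 to 4 single SN calls (0 without CON(SN) replicate 2 or SN72h replicate 3), 0 to 2 for the interaction and 0 in both pool fits. The share of all probes called in these fits was not counted. Kcnab1 and Kcna1 kept their DR course calls in all 52 such fits. The interaction of Kcnab1 was furthest from its call without CON(SN) replicate 2 (adjusted p = 0.129). Kcnh2 lost its call without DR14d replicate 2 or 3 (adjusted p = 0.0774 and 0.0786). With each series alone, the adjusted p was 0.0644 for Kcna1, 0.22 for Kcnd1, 0.165 for Kcnh2, 0.201 for Kcnip4 and 0.0912 for Kcnt1. With no dye term it was 0.0717 for Kcnd1 and 0.052 for Kcne3, and with the replicate block 0.0598 for Kcne3.

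With 16 of the 61 probes in the dimmest 25%, and 1 pool behind each group, small changes of dim channels could not be seen.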
